A study of Rattus norvegicus with 9 samples.

Results

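Lysosomal hydrolases, lysosomal membrane proteins and the proton pump that acidifies the lysosome were compared between rat kidneys perfused with MSC and kidneys that were not perfused. The genes were chosen by name. They are those whose gene name on the array is 1 of 45 listed names or starts with Atp6, leaving out Atp6v0d2, Atp6v1b1, Atp6v0a4, Atp6v1g3 and Atp6v1c2. This gave 73 of the 30367 gene probes, which stand for 64 of the 26115 gene names on the array. By role these were 12 proteases, 16 glycosidases and sulfatases, 10 lipid and phosphate hydrolases with their helpers and the transcription factor Tfeb, 6 membrane proteins and 20 pump subunits. Ctsl was on the array under its older name Ctsl1.

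The study modelled donation after circulatory death (DCD) in Fisher F344 rats, and 1 kidney was put on each array. NP kidneys (*n* = 5) had 20 min. of warm ischaemia before removal and were stored in RNAlater without perfusion. After equal ischaemia, MSC kidneys (*n* = 4) were perfused for 4 hrs with cold (4°C) Belzer solution (BS) to which 3000000 MSC had been added. These cells were grown from the bone marrow of EGFP transgenic Sprague Dawley rats. The age of the rats was not given in the sources used here. The authors discarded a further MSC array because of its poor quality, and it was not analysed here either. The labels are divided on the control kidneys, whose treatment field says that they were not perfused while their titles and descriptions name a perfusion with BS. They are called NP after the paper. The vessel clamped to stop the blood flow also differs between sources, being the abdominal aorta in the labels and the renal artery in the paper. Perfusion, the time spent in the cold and the MSC all differ between NP and MSC, and their parts cannot be told apart.

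Between 65.6% and 74.3% of gene spots per array were well above background, and no gene spot was saturated. The number of arrays limits the precision. The arrays lay on 2 slides, with NP replicates 1 to 3 and MSC replicates 1 and 2 on slide 1, and the remaining NP and MSC arrays on slide 2. NP replicate 2 stood apart, with the lowest median correlation to the other arrays (Pearson's r across probes 0.980, against at most 0.993). For this reason several results, though not all, are also given without it. The kidney label was borne out by its markers, as all 12 proximal tubule, 12 intercalated cell, 5 thick ascending limb and 5 principal cell markers found on the array passed the filter on low values, as did 3 of 4 podocyte markers (Synpo did not).

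Lysosomes break down proteins, glycans, lipids and nucleic acids that reach them by endocytosis, autophagy or phagocytosis. Their hydrolases work at acid pH, which is set by the vacuolar ATPase, a rotary pump with a V1 sector that splits ATP and a V0 sector in the membrane that lets protons through. In the kidney the proximal tubule is known for its many lysosomes, which degrade filtered protein taken up by endocytosis, while intercalated cells carry special forms of the pump at the cell surface. Many lysosomal genes share a short promoter motif around the letters CACGTG, through which TFEB and its relatives can switch them on together.

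Of the 64 genes, 59 passed the filter on low values and were tested, each with a signal well above background on all 9 arrays. The other 5, Sgsh, Galns, Atp6ap1l, Atp6v1e2 and Atp6v1g2, were too dim for the filter and are given no fold. None of the 59 passed the thresholds of limma (FDR 0.05, fold change 1.5), and the lowest FDR among them was 0.334. None of all 13769 genes tested passed either. The paper, with the same thresholds, reported Tmem52b and Calb1 as higher in MSC kidneys and no gene as lower. Why the calls differ was not tested. At an unadjusted p under 0.05, 14 of the 59 (23.7%) were higher in MSC kidneys, where 6.59% of all genes were. One gene, Atp6v0a1, was lower at that threshold, against 5.09% of all genes. In 49 of the 59 (83.1%) the log2 difference, MSC minus NP, was above 0, against 48.6% of all genes. In 7 (11.9%) every MSC array lay above every NP array, against 3.18% of all genes, and in 0 every MSC array lay below, against 2.14%. The differences were small, from -0.29 to 0.62 on the log2 scale with a median of 0.17, while the median over all genes was -0.01. The genes were not independent of each other, and their count carries no p-value. In whole tissue, fewer cells of a type and less RNA per cell cannot be told apart, and the same holds for more.

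The level of the genes as a whole was given for each array by their mean log2 intensity after each gene had been centred on its mean over the 9 arrays. This was -0.04, -0.18, -0.11, -0.05 and 0.01 on NP replicates 1 to 5, and 0.12, 0.07, 0.11 and 0.07 on MSC replicates 1 to 4. The groups did not overlap, with NP replicate 2 lowest and NP replicate 5 nearest to the MSC arrays. The same mean over all 13769 genes was -0.10, 0.09, 0.02, 0.01 and 0.00 on NP replicates 1 to 5. On MSC replicates 1 to 4 it was -0.02, 0.01, -0.03 and 0.03. These shifts of whole arrays were not taken off the levels of the lysosomal genes. NP replicate 2 was the lowest array for 28 of the 59 genes (47.5%), against 19.7% of all genes. Without it 47 of the 59 genes were above 0, against 50.6% of all genes, and 13 were higher at an unadjusted p under 0.05 (22.0%, against 6.02% of all genes). Of these 13, 11 were among the original 14. The count depended more on the scaling, as scaling each array to its median alone left 1 of the 14 at an unadjusted p under 0.05 (1.69% of the 59, against 2.04% of all genes), with 45 of the 59 differences above 0 and a median of 0.13.

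**Figure D1:**
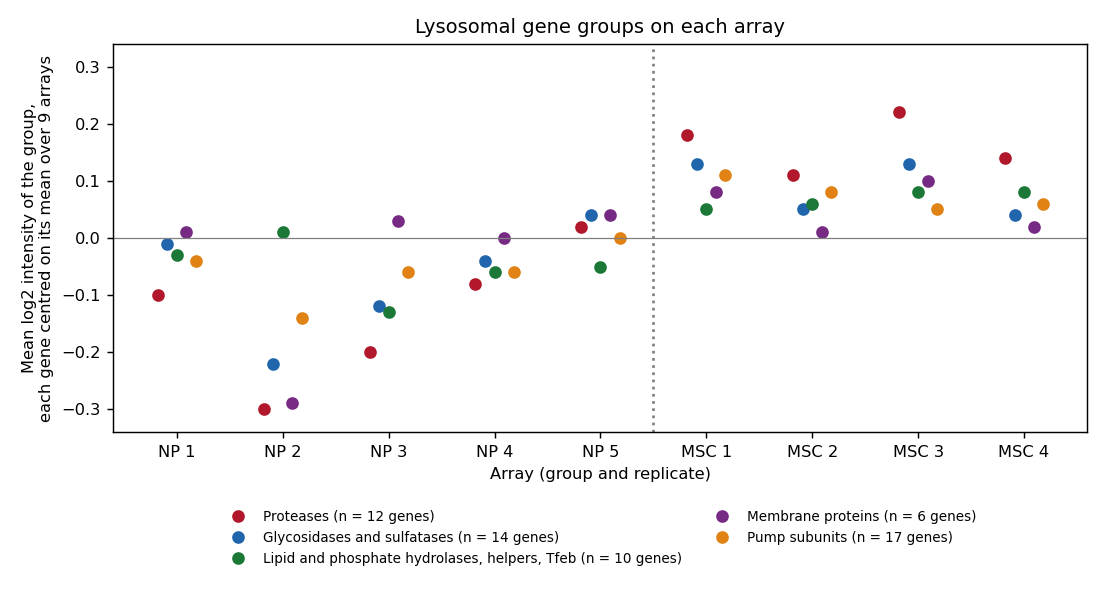
Mean log2 intensity of each group of lysosomal genes (vertical axis, each gene centred on its mean over the 9 arrays) on each array (horizontal axis, NP replicates 1 to 5 and MSC replicates 1 to 4), with 1 point per gene group. Proteases lay between -0.30 and 0.02 on NP arrays and between 0.11 and 0.22 on MSC arrays, whereas membrane proteins overlapped, with only NP replicate 2 far below at -0.29.

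Because CACGTG is the core of the motif that TFEB binds, promoters of the genes were searched for it in RefSeq sequence (rat build GRCr8), from 250 bases before to 50 bases after each start of transcription. Of the 64 genes, 53 had a promoter in the table. CACGTG and TCACGTGA were searched, which read the same on both strands, the longer holding the shorter, together with the full CLEAR palindrome that holds both. CACGTG was in 9 of the 53 (17%), against 6.42% of the 33469 promoters in the table. TCACGTGA was in 6 (11.3%), against 0.777%, and the CLEAR palindrome in 0, against 0.233%. A match is a description of these letters only. The 6 promoters with TCACGTGA belonged to 3 of the 6 membrane proteins, 1 of 11 proteases and 2 of 16 pump subunits, and to none of the 13 glycosidases and sulfatases or the 7 lipid and phosphate hydrolases and helpers with a promoter. They are shown here, 5′ to 3′ along the gene with the motif in capitals, because they are the promoters that carry the longest motif found.
Lamp1: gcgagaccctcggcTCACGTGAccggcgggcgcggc
Cln3: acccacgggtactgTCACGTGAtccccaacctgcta
Mcoln1: cgccccgcTCACGTGAccgcggcgcatgtc
Ctsd: cccgcgtcTCACGTGAcccgttgaggggca
Atp6v0d1: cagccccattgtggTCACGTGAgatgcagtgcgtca
Atp6v0e1: cgcgccggTCACGTGAgcctctgttgacac
In GRCr8 these stretches are at chr16:83075108-83075143 for Lamp1, chr1:190597947-190597982 for Cln3, chr12:6358253-6358282 for Mcoln1, chr1:206968811-206968840 for Ctsd, chr19:50357280-50357315 for Atp6v0d1 and chr10:17007112-17007141 for Atp6v0e1. Mcoln1 is on the plus strand and the others are on the minus strand. Counted from the start of transcription, the first base of TCACGTGA was at -66 in Lamp1, which had a further copy at -39, -39 in Cln3, 4 in Mcoln1, -11 in Ctsd, -53 in Atp6v0d1 and 24 in Atp6v0e1.

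Lamp1 had the most copies, with 5 CACGTG in a stretch of 171 bases, which is shown whole for that reason with the core in capitals (chr16:83075086-83075256, minus strand).
Lamp1: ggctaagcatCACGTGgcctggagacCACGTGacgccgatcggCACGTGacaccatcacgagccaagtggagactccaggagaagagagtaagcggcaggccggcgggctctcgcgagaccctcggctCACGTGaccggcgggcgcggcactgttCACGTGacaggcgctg
The remaining promoters with CACGTG, but not the longer motif, were those of Gaa, Glb1 and Sgsh, all glycosidases or sulfatases. Genes with and without the motif overlapped in their differences. Of the 8 tested genes with CACGTG, 7 were above 0 with a median log2 difference of 0.21, and of the 40 tested genes without it 32 were above 0 with a median of 0.16. The 6 genes with TCACGTGA ranged from -0.01 for Cln3 to 0.35 for Ctsd. Tfeb itself, the factor named for this motif, was at 9.92, 10.02, 10.07, 10.12 and 9.96 on the NP arrays and at 9.73, 9.99, 9.90 and 10.18 on the MSC arrays. The groups overlapped fully, with a log2 difference of -0.07 (standard error 0.10) and an FDR of 0.806 from limma.

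Proteases were the group with the highest median. All 12 were above 0 (against 48.6% of all genes), with a median log2 difference of 0.26 (range 0.15 to 0.62). At an unadjusted p under 0.05, 5 were higher (against 6.59% of all genes). Their mean centred level was 0.17 ± 0.05 (SD, *n* = 4) on MSC arrays and -0.13 ± 0.12 (SD, *n* = 5) on NP arrays. Of the 9 cathepsins by name, 3 were among the 5.

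Ctsc, cathepsin C, removes dipeptides from the N-terminus of proteins and activates serine proteases of immune cells. Its log2 intensity was 14.52, 13.56, 13.81, 14.11 and 14.12 on NP replicates 1 to 5, and 14.76, 14.72, 14.60 and 14.49 on MSC replicates 1 to 4. NP replicate 1 lay just above the lowest MSC array and the other NP arrays lay below all MSC arrays. The log2 difference was 0.62 (standard error 0.17; fold change 1.53; unadjusted p 0.00494; FDR 0.334 from limma). It was 0.78 on slide 1, 0.43 on slide 2 and 0.50 without NP replicate 2.

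Ctsd, cathepsin D, is the main aspartic protease of the lysosome. It was at 17.39, 17.05, 17.20, 17.26 and 17.45 on NP arrays and at 17.55, 17.57, 17.61 and 17.76 on MSC arrays, without overlap. The difference of 0.35 (standard error 0.10; FDR 0.334) was nearly the same on slide 1 (0.34) and slide 2 (0.33). It was 0.30 without NP replicate 2. Dpp7, a dipeptidyl peptidase that cuts after proline, was at 14.87, 14.22, 14.78, 14.88 and 15.16 on NP arrays and at 15.37, 15.23, 15.40 and 15.29 on MSC arrays. Every MSC array was again the higher, by 0.54 in the mean (standard error 0.16; FDR 0.334), by 0.68 on slide 1, by 0.33 on slide 2 and by 0.40 without NP replicate 2.

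Ctsh, cathepsin H, an aminopeptidase, was higher by 0.28 (standard error 0.11; unadjusted p 0.0266; FDR 0.388). Lgmn, legumain, which cuts after asparagine and processes cathepsins, was higher by 0.38 (standard error 0.16; unadjusted p 0.0391; FDR 0.408). Both rested mainly on slide 1. For Ctsh the difference was 0.44 there and 0.07 on slide 2, and it was 0.22 without NP replicate 2. Lgmn was at 16.19, 15.88 and 16.03 on the NP arrays of slide 1 against 16.80 and 16.63 on its MSC arrays, a difference of 0.68, while on slide 2 the NP arrays were at 16.42 and 16.53 and the MSC arrays at 16.69 and 16.23, a difference of -0.02. Its unadjusted p was 0.0527 with the slide as a block and 0.0811 without NP replicate 2, its lowest array. Ctsk, the collagen-degrading cathepsin of osteoclasts, had the lowest difference of the group, 0.15 (standard error 0.20; FDR 0.790). Its highest NP value, 11.56 on replicate 2, lay above all MSC arrays, which ranged from 10.76 to 11.20, and the difference was 0.32 without that array and 0.061 without NP replicate 1, its lowest.

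**Figure D2:**
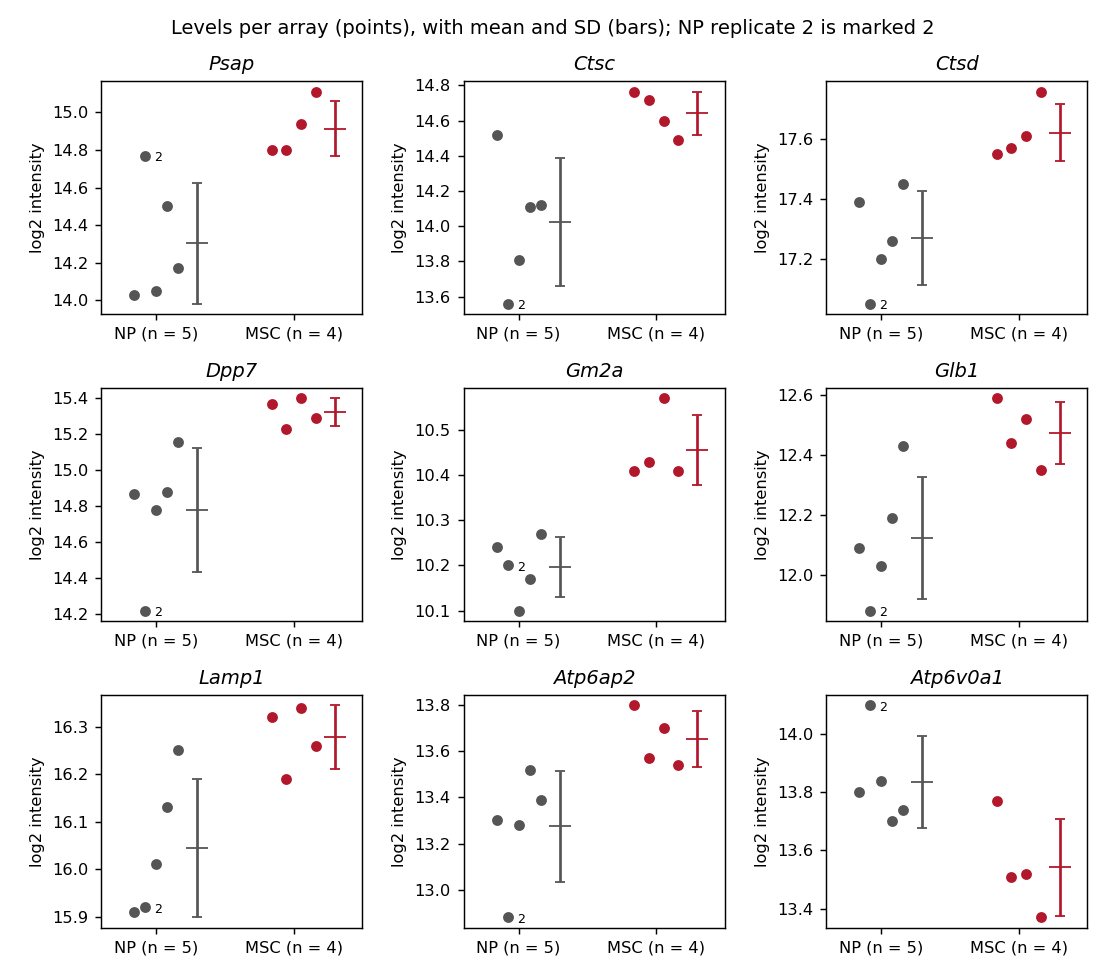
Log2 intensity (vertical axis, a scale of its own for each gene) of 9 lysosomal genes on each NP array (grey) and MSC array (red), with the mean and SD beside the points and NP replicate 2 marked. Psap, Ctsd, Dpp7, Gm2a and Atp6ap2 had every MSC array above every NP array, and Atp6v0a1 was lower in MSC kidneys by 0.29 with overlap.

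Glycosidases and sulfatases take sugars and sulfates from glycoproteins, glycolipids and glycosaminoglycans. Of the 14 tested, 12 were above 0 (against 48.6% of all genes), with a median log2 difference of 0.18 (range -0.13 to 0.35). At an unadjusted p under 0.05, 3 were higher (against 6.59% of all genes) and 0 lower (against 5.09%). Every gene of the group had some overlap between NP and MSC arrays. Of all genes, only 3.18% had every MSC array above every NP array, and 2.14% every one below. The mean centred level of the group was 0.09 ± 0.05 (SD, *n* = 4) on MSC arrays and -0.07 ± 0.10 (SD, *n* = 5) on NP arrays. Of the 5 sulfatases, the 3 tested had a median of 0.16 and none had an unadjusted p under 0.05.

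Glb1, the acid beta-galactosidase, had the largest difference of the group. It was at 12.09, 11.88, 12.03, 12.19 and 12.43 on NP arrays and at 12.59, 12.44, 12.52 and 12.35 on MSC arrays. NP replicate 5 lay among the MSC arrays and the others below them. The difference was 0.35 (standard error 0.11; unadjusted p 0.0116; FDR 0.334), with 0.52 on slide 1 and 0.12 on slide 2. It was 0.29 without NP replicate 2. A further Glb1 probe gave 0.09 at an unadjusted p of 0.372, so that the value depended on the probe that was kept.

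Hexa, a subunit of beta-hexosaminidase, which trims gangliosides, was at 13.73, 13.54, 13.63, 13.79 and 13.98 on NP arrays and at 14.08, 13.97, 14.02 and 13.96 on MSC arrays. NP replicate 5 was the only NP array that reached the MSC range. The difference was 0.28 (standard error 0.10; unadjusted p 0.0170; FDR 0.349), from 0.39 on slide 1 to 0.11 on slide 2. It was 0.23 without NP replicate 2. Aga, which frees asparagine from its glycan, was higher by 0.26 (standard error 0.11; FDR 0.410), and its unadjusted p of 0.0405 became 0.0604 without NP replicate 2 and 0.0516 with the slide as a block. Gla, the alpha-galactosidase that is missing in Fabry disease, had a difference of 0.21 (standard error 0.10) and Gaa, the acid alpha-glucosidase that degrades glycogen, one of 0.19 (standard error 0.09). Their unadjusted p was 0.0618 and 0.0699. Gla was at 0.37 on slide 1 and 0.04 on slide 2, and at 0.12 without MSC replicate 1. With the slide as a block the unadjusted p of Gaa was 0.0328 (FDR 0.356). Ids, which removes sulfate from heparan and dermatan sulfate, was the lowest of the group at -0.13 (standard error 0.14; FDR 0.756), and was at -0.01 without NP replicate 2, where it was highest.

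Among the 10 genes of lipid and phosphate breakdown with Tfeb, 7 were above 0 (against 48.6% of all genes), with a median log2 difference of 0.12 (range -0.19 to 0.61). The activator proteins Psap and Gm2a were higher at an unadjusted p under 0.05 (against 6.59% of all genes). In both, every MSC array lay above every NP array (against 3.18% of all genes). The mean centred level of the group was 0.07 ± 0.01 (SD, *n* = 4) on MSC arrays and -0.05 ± 0.05 (SD, *n* = 5) on NP arrays.

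Psap, prosaposin, is cut into the saposins that lift sphingolipids towards their hydrolases. It had the lowest unadjusted p of all 59 genes, 0.00347. Its log2 intensity was 14.03, 14.77, 14.05, 14.50 and 14.17 on NP arrays and 14.80, 14.80, 14.94 and 15.11 on MSC arrays. NP replicate 2, the lowest NP array for many of the genes, was here the highest and came close to the MSC arrays. The difference was 0.61 (standard error 0.16; fold change 1.52; FDR 0.334). It was 0.51 on slide 1, 0.69 on slide 2 and 0.72 without NP replicate 2, at an FDR of 0.379. Its probe covers bases 27619591 to 27619650 of chromosome 20 (build rn4).

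Gm2a, the activator that presents ganglioside GM2 to beta-hexosaminidase, was at 10.24, 10.20, 10.10, 10.17 and 10.27 on NP arrays and at 10.41, 10.43, 10.57 and 10.41 on MSC arrays. The spread was narrow in both groups, and the difference of 0.26 (standard error 0.07; unadjusted p 0.00545; FDR 0.334) was 0.24 on slide 1 and 0.27 on slide 2. Acp5, tartrate-resistant acid phosphatase, had a difference of 0.17 (standard error 0.09), and Asah1, acid ceramidase, one of 0.19 (standard error 0.10). Lipa, the acid lipase that frees cholesterol and fatty acids, went the other way at -0.19 (standard error 0.09). None of these 3 passed an unadjusted p of 0.05, with 0.0775, 0.0922 and 0.0623. Without MSC replicate 2, its highest array, the difference of Asah1 was 0.11. Ppt1, a thioesterase that removes palmitate from proteins, had probes of opposite sign. The kept probe gave -0.02 (standard error 0.12) and the other gave 0.22 at an unadjusted p of 0.0488.

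Of the 6 membrane proteins, 4 were above 0 (against 48.6% of all genes), with a median log2 difference of 0.11 (range -0.08 to 0.23). Without NP replicate 2 the median was 0.016. The centred level was 0.01, -0.29, 0.03, 0.00 and 0.04 on NP arrays and 0.08, 0.01, 0.10 and 0.02 on MSC arrays, and NP replicate 2 lay far below all other arrays. Lamp1, a heavily glycosylated protein of the lysosomal membrane, was the only one higher at an unadjusted p under 0.05 (against 6.59% of all genes). It was at 15.91, 15.92, 16.01, 16.13 and 16.25 on NP arrays and at 16.32, 16.19, 16.34 and 16.26 on MSC arrays. Of the NP arrays only replicate 5 reached the MSC range. The difference was 0.23 (standard error 0.09; unadjusted p 0.0287; FDR 0.389) and was 0.20 without NP replicate 2, at an unadjusted p of 0.0541. It was 0.31 on slide 1 and 0.11 on slide 2. This is the gene whose promoter held 5 copies of CACGTG.

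Lamp2, which also serves chaperone-mediated autophagy, was at 13.37, 12.74, 13.46, 13.59 and 13.47 on NP arrays and at 13.66, 13.60, 13.67 and 13.21 on MSC arrays. Its difference of 0.21 (standard error 0.17; FDR 0.663) was 0.43 on slide 1 and -0.09 on slide 2, and 0.06 without NP replicate 2. Scarb2, the receptor that carries glucocerebrosidase to lysosomes, had a difference of 0.21 (standard error 0.12; FDR 0.512), close to 0.20 on either slide. Mcoln1, a calcium channel of the lysosome, was at 14.82, 14.72, 14.71, 14.91 and 15.07 on NP arrays and at 14.98, 14.77, 14.92 and 14.73 on MSC arrays. The groups overlapped fully (log2 difference 0.00, standard error 0.10; FDR 0.992). The Mcoln1 promoter is among those that carry TCACGTGA. Cln3, the protein altered in juvenile Batten disease, was at -0.01 (standard error 0.08; FDR 0.970). Npc1, which exports cholesterol from lysosomes, gave -0.08 (standard error 0.17; FDR 0.891) by the kept probe and 0.24 at an unadjusted p of 0.0789 by the other.

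Of the 17 pump subunits tested, 14 were above 0 (against 48.6% of all genes), with a median log2 difference of 0.14 (range -0.29 to 0.38). At an unadjusted p under 0.05, 3 were higher (against 6.59% of all genes), all without overlap between the groups (against 3.18%), and 1 was lower (against 5.09%). The centred level was 0.08 ± 0.03 (SD, *n* = 4) on MSC arrays and -0.06 ± 0.05 (SD, *n* = 5) on NP arrays. By sector, 6 of 8 V1 subunits were above 0 (median 0.12), 6 of 7 V0 subunits (median 0.15) and both accessory proteins tested (median 0.25).

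Atp6ap2, the accessory protein also known as the prorenin receptor, was at 13.30, 12.88, 13.28, 13.52 and 13.39 on NP arrays and at 13.80, 13.57, 13.70 and 13.54 on MSC arrays. The lowest MSC array and the highest NP array, both from slide 2, differed by little. The difference was 0.38 (standard error 0.13; unadjusted p 0.0141; FDR 0.339), with 0.54 on slide 1 and 0.16 on slide 2. It was 0.28 without NP replicate 2. Atp6v1h, the V1 subunit that couples the pump's activity to its assembly, was at 14.04, 13.35, 13.80, 13.57 and 13.89 on NP arrays and at 14.20, 14.05, 14.10 and 14.06 on MSC arrays. Its MSC arrays lay close together, and NP replicate 1 was just below them. The difference was 0.37 (standard error 0.13; FDR 0.356) and similar on slide 1 (0.40) and slide 2 (0.35). It was 0.28 without NP replicate 2. Atp6v1d, part of the central rotor, was at 13.04, 13.21, 13.28, 13.08 and 13.19 on NP arrays and at 13.35, 13.46, 13.28 and 13.44 on MSC arrays, where the highest NP array equalled the lowest MSC array to 2 decimals. It was higher by 0.22 (standard error 0.08; unadjusted p 0.0195; FDR 0.358), with 0.23 on slide 1 and 0.22 on slide 2.

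Atp6v0a1, an isoform of the large V0 subunit that directs the pump to its membrane, was the only gene lower at an unadjusted p under 0.05. It was at 13.80, 14.10, 13.84, 13.70 and 13.74 on NP arrays and at 13.77, 13.51, 13.52 and 13.37 on MSC arrays. MSC replicate 1 lay inside the NP range and the other MSC arrays below it. The difference was -0.29 (standard error 0.11; unadjusted p 0.0233; FDR 0.377), and nearly the same on slide 1 (-0.27) and slide 2 (-0.28). Atp6v0c, the proteolipid of the proton-carrying ring, had a difference of 0.22 (standard error 0.11; unadjusted p 0.0710; FDR 0.466), with 0.34 on slide 1, 0.07 on slide 2 and 0.15 without NP replicate 2. Atp6v1a, the catalytic subunit, is named after its values were seen, because its probes differed in size. The kept probe gave 0.08 at an unadjusted p of 0.628 and the other gave 0.26 at an unadjusted p of 0.00715. The 5 subunits left out by the choice of genes, which are enriched in intercalated cells, were all above 0 with a median of 0.55, led by Atp6v0d2 (0.76, standard error 0.16; FDR 0.334) and Atp6v1g3 (0.74, standard error 0.20; FDR 0.334).

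**Figure D3:**
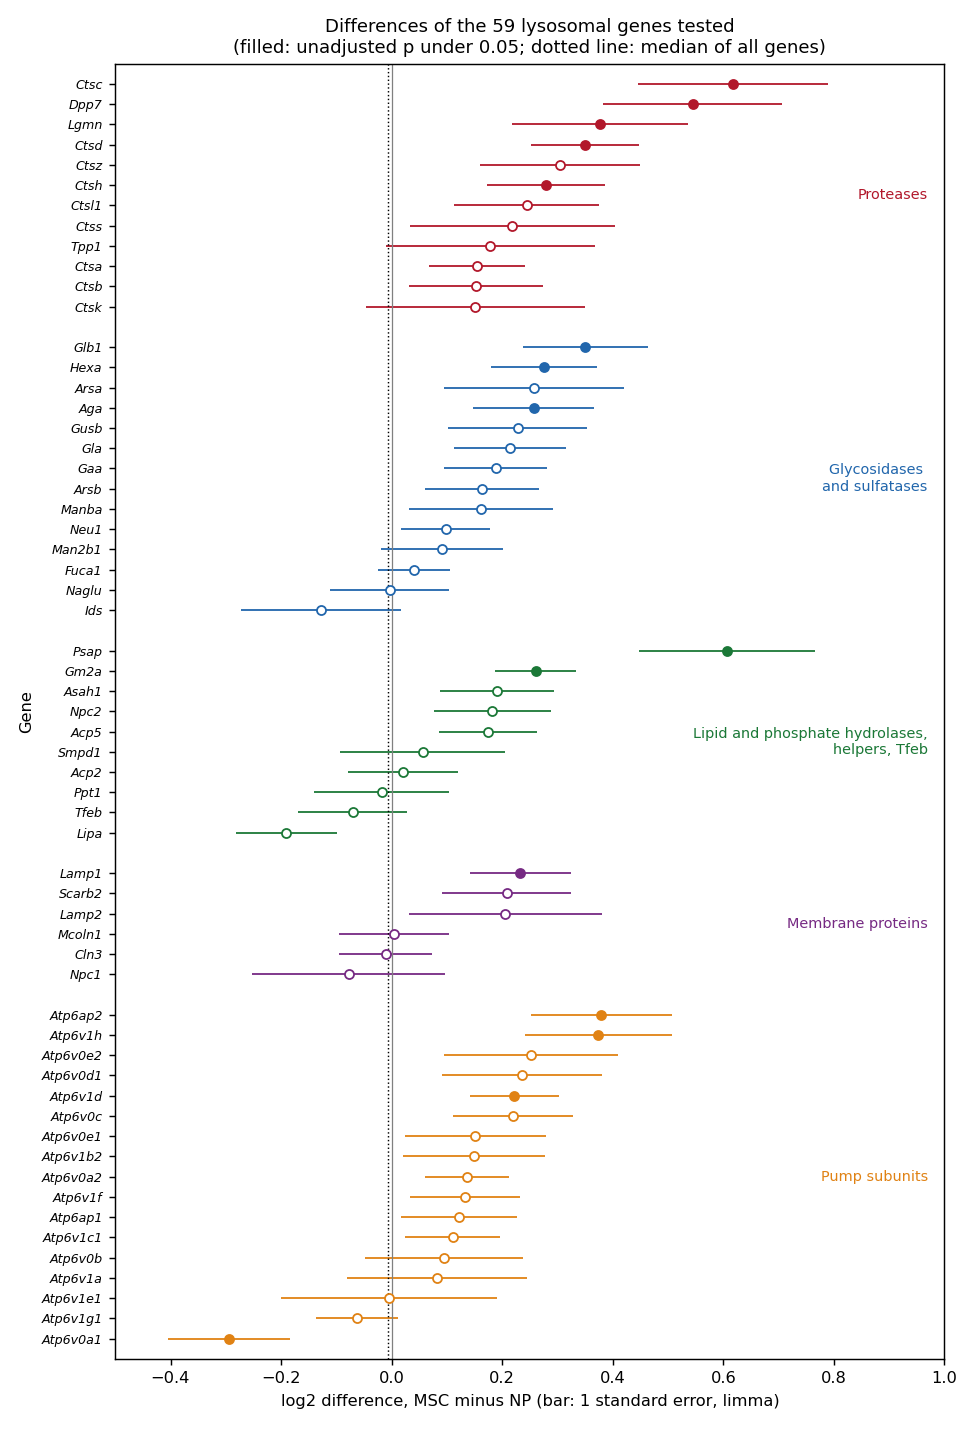
Log2 difference, MSC minus NP (horizontal axis), of the 59 tested genes (vertical axis, by group), with bars of 1 standard error from limma and filled points for an unadjusted p under 0.05. Of the points, 49 lay above 0, 14 of them filled, and Atp6v0a1 at -0.29 was the only filled point below it.

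Within the slides, 50 of the 59 genes (84.7%) were above 0 on slide 1, against 48.4% of all genes, and 46 (78.0%) on slide 2, against 47.9%. Both slides gave a difference above 0 for 42 genes (71.2%), against 30.4% of all genes. At an unadjusted p under 0.05 9 (15.3%) were higher on slide 1 alone, against 3.58% of all genes, and 7 (11.9%) on slide 2 alone, against 3.61%. Of the 14 genes higher over all arrays, 13 were above 0 on both slides, Lgmn being the exception.

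**Figure D4:**
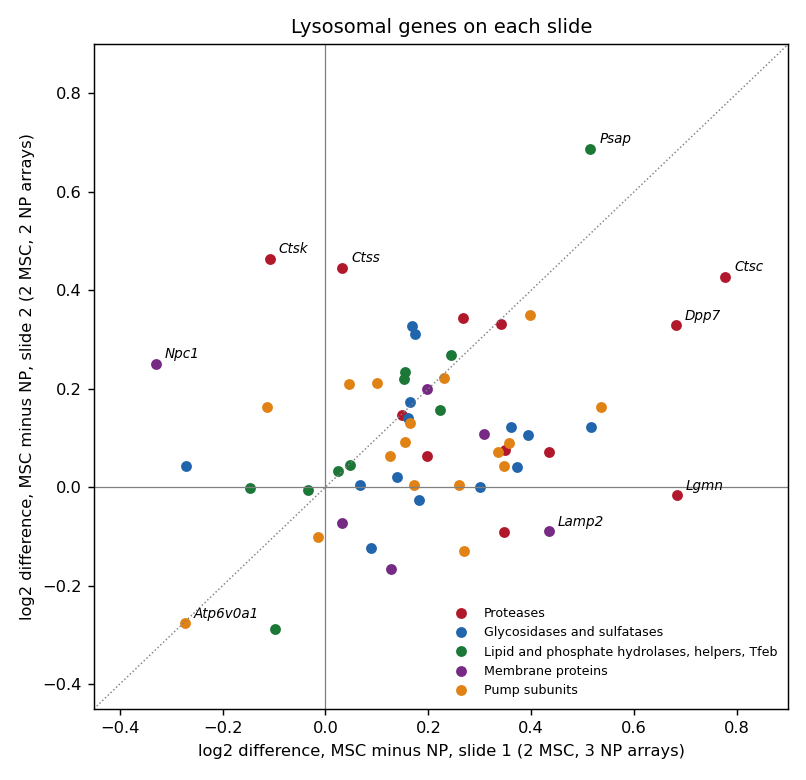
Log2 difference, MSC minus NP, of each of the 59 tested genes on slide 1 (horizontal axis, 2 MSC and 3 NP arrays) against slide 2 (vertical axis, 2 MSC and 2 NP arrays), coloured by group, with a dotted line where both are equal. Psap (0.51 and 0.69) and Ctsc (0.78 and 0.43) lay high on both slides, while Lgmn (0.68 and -0.02) and Lamp2 (0.43 and -0.09) were above 0 on slide 1 alone.

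Other genes of the pathway were counted in the same way, against the 48.6% of all genes above 0 and the 6.59% higher at an unadjusted p under 0.05. Of 10 tested genes for mannose 6-phosphate and sortilin sorting, which bring hydrolases to lysosomes, 8 were above 0 (median 0.09) and 3 were higher at an unadjusted p under 0.05. Gga2, a sorting adaptor at the Golgi, was at 0.69 (standard error 0.14; FDR 0.334), and Ap1m1, an adaptor subunit, at 0.30 (standard error 0.10; FDR 0.346). Of 21 further lysosomal enzymes and membrane proteins, 16 were above 0 (median 0.11) and 3 had an unadjusted p under 0.05, among them Cd63, a tetraspanin of late endosomes (0.26, standard error 0.08; FDR 0.334), and Laptm4b (0.38, standard error 0.13; FDR 0.337). The 17 genes of the TFEB family and of mTORC1 signalling at the lysosome were divided, with 8 above 0 (47.1%, median -0.03) and 1 higher at an unadjusted p under 0.05 (5.88%), shares near those of all genes. This was the amino acid sensor Slc38a9 (0.22; FDR 0.417). Tfe3, a relative of Tfeb, was at -0.14 (FDR 0.523). Of 7 tested genes for pump assembly and the subunits left out, 6 were above 0 (median 0.17).

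Markers of cell types that are rich in lysosomes or pumps, and of other cell types, were read on the same arrays. Of all genes, 48.6% were above 0, and at an unadjusted p under 0.05 6.59% were higher and 5.09% lower. Of 11 tested macrophage markers 10 were above 0 (median 0.25), but 0 had an unadjusted p under 0.05, and their centred level ranged from -0.53 to 0.25 on NP arrays and from -0.07 to 0.35 on MSC arrays. Mrc1 was not well above background on any array and Cd163 did not pass the filter. Of 12 intercalated cell markers, which include the 5 pump subunits left out, 11 were above 0 (median 0.37) and 6 had an unadjusted p under 0.05, with a level from -0.50 to 0.11 on NP arrays and from 0.13 to 0.43 on MSC arrays. Proximal tubule markers were above 0 in 9 of 12 (median 0.14) and 2 had an unadjusted p under 0.05, with a level from -0.37 to 0.08 on NP arrays and from -0.01 to 0.16 on MSC arrays. All 5 principal cell markers were above 0 (median 0.42), 2 of them at an unadjusted p under 0.05. Of 5 thick ascending limb markers 4 were above 0 (median 0.31) and 3 had an unadjusted p under 0.05, with a level from -0.33 to -0.0090 on NP arrays and from 0.011 to 0.53 on MSC arrays, without overlap. The 3 podocyte markers tested were below 0 (median -0.33), with 0 at an unadjusted p under 0.05. Of the 6 tested markers of the mesenchymal stromal cell, 5 were above 0 (median 0.52) and 1 had an unadjusted p under 0.05, with Thy1 and Itga5 not tested. The 6 perirenal fat markers tested were above 0 (median 1.33), 2 of them at an unadjusted p under 0.05, with a level from -1.12 to 0.12 on NP arrays and from -1.04 to 1.97 on MSC arrays. All 4 red cell markers were lower at an unadjusted p under 0.05 (median -1.71), from 0.15 to 1.27 on NP arrays and from -3.20 to 0.66 on MSC arrays. The part of these cell types in the lysosomal differences was not tested.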

How the data were processed

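Total RNA of each kidney was labelled with Cy3 and hybridised to an Agilent rat array of 1 colour. The authors deposited, per the file headers, the spot intensity values of Agilent Feature Extraction 10.7.3.1 with flags for each spot, and a table of log2 values that the authors had normalized. Probe positions in the files are of the rat build rn4. Mean pixel intensities were taken here, log2 transformed without background subtraction, and brought to a common scale by cyclic loess (limma 3.58.1, R 4.3.3, data.table version 1.17.8), after the study's methods. Control spots and 273 to 593 flagged gene spots per array were left out. Probes were kept if on at least 4 arrays they exceeded, in log2, the negative controls' 95th percentile by a factor of 1.1, which is 1 reading of the study's filter and kept 15635 of 30367 probes. Spots were averaged and the probe of largest variance was kept for each gene, giving 13769 genes, of which 1706 had a choice of probes. Against the authors' table, Pearson's r per array was 0.9999 to 0.99997 over 15635 probes.

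MSC and NP arrays were compared by limma's linear model with empirical Bayes over all 13769 genes, with Benjamini-Hochberg adjustment over all of them, calls needing an FDR below 0.05 and a fold change above 1.5. Labels give 1 kidney per sample, and p-values measure the spread between these kidneys. The lysosomal genes, their groups and the other lists were chosen with earlier results of these data known, so no list was tested as a set. Genes named are Tfeb, Mcoln1, the 5 of lowest p and the 1 of lowest difference in each group, and those with probes of opposite sign. Means are given ± SD and levels of different probes were not compared. Of 73 probes, 66 had an accession that RefSeq listed, and 1 of them had a newer gene name. Promoters were read from RefSeq. Probes were not placed in coding sequence or UTR. Alternatives covered the signal column, background correction, normalization, filter, choice of probe, array weights, slide, replicate block, the deposited values and each array left out. The fit was tested on simulated data with genes independent of each other. Changes as small as those of the lysosomal genes were not simulated. No per-sample column of the files was left unmapped.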

Additional observations from a re-analysis of the deposited data

Results flagged for a closer look

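The highest or lowest array of a group was set against the others by Dixon's ratio, the gap to the next array over the whole range of the group, in 70 sets of levels. The ratio passed its critical value at the 95% level in 4 of them, where chance gives about 3.5. Gm2a on MSC replicate 3 was high at 10.57, with the next array at 10.43 (ratio 0.850). Lamp2 on NP replicate 2 was low at 12.74, with the next at 13.37 (ratio 0.742). Lamp2 on MSC replicate 4 was also low, at 13.21 with the next at 13.60 (ratio 0.838). The centred level of the 6 membrane proteins was low on NP replicate 2 at -0.29, with the next at 0.00 (ratio 0.873).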

How the results depend on the processing

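Over 28 alternatives no lysosomal gene was called by limma (at an unadjusted p under 0.05 there were 14 higher and 1 lower), and the lowest FDR of any of them was 0.115, with array weights. Of all genes, 2 were called higher with array weights and 4 on slide 2 alone. At an unadjusted p under 0.05, 4.84% of all genes were higher with 75th percentile scaling of the background-subtracted signal, and 2.04% with median scaling. The share was 3.58% on slide 1 alone, 3.61% on slide 2 alone and 4.90% to 7.38% with each array left out. The share lower ranged from 2.22% on slide 1 alone to 9.28% without NP replicate 1. Lysosomal genes higher at an unadjusted p under 0.05 numbered 8 with 75th percentile scaling of the background-subtracted signal, 1 with median scaling, 9 on slide 1 alone, 7 on slide 2 alone, and 11 to 20 with each array left out. Those lower numbered 2 with either normalization of the background-subtracted signal, without a filter and with the filter on the linear scale, 0 with median scaling and on either slide alone, and 0 to 2 with each array left out. Atp6v0a1 was no longer under 0.05 without MSC replicate 2, 3 or 4, with median scaling, on either slide alone or with array weights, where the 1 lower gene was Lipa.

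The median of the lipid and phosphate group was 0.17 with quantile normalization, 0.074 and 0.18 with 75th percentile scaling of the mean and of the background-subtracted signal, and 0.036 with median scaling. That of pump subunits was 0.077 with median scaling and 0.090 on slide 2 alone, and that of glycosidases and sulfatases 0.074 on slide 2 alone. The median of membrane proteins was 0.068 with median scaling. With each array left out the medians were 0.25 to 0.31 for proteases, 0.13 to 0.22 for glycosidases and sulfatases, 0.086 to 0.16 for the lipid and phosphate group, 0.016 to 0.15 for membrane proteins and 0.12 to 0.18 for pump subunits. Median scaling turned the split of all genes at an unadjusted p under 0.05 from 6.59% higher and 5.09% lower to 2.04% and 4.04%. With 75th percentile scaling it was 4.96% and 2.88%, with that of the background-subtracted signal 4.84% and 3.16%, with array weights 8.10% and 8.44%, and without NP replicate 1 it was 7.38% and 9.28%. The cause was not tested.

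Of the 14 genes higher at an unadjusted p under 0.05, all stayed above 0 in every alternative but slide 2 alone, where Lgmn was at -0.017. On single slides Ctsk was at -0.11 (slide 1), Ids at 0.042 and Lamp2 at -0.090 (slide 2). With single arrays left out, 8 of the 14 stayed under an unadjusted p of 0.05 throughout. Lamp1 did not without NP replicate 1, 2 or 3 or MSC replicate 1 or 3, Lgmn also not without MSC replicate 2, Aga without NP replicate 2, 3 or 4 or MSC replicate 1, 2 or 3, Ctsh without NP replicate 1 or MSC replicate 1 or 3, Atp6v1h without MSC replicate 1, and Atp6v1d without MSC replicate 2 or 4. Genes near 0 changed sign. Cln3 was at 0.0088 with cyclic loess of the background-subtracted signal, 0.0034 with normexp, 2e-04 with quantile normalization, 0.025 and 0.024 with 75th percentile scaling of the mean and background-subtracted signals, 0.032 on slide 1, and -0.060 to 0.029 with each array left out. Ppt1 was at 0.23 with quantile normalization and with 75th percentile scaling of the background-subtracted signal, 0.10 by the mean of probes, 0.0022 with array weights, and -0.098 to 0.056 with each array left out. Mcoln1 was at -0.027 and -0.0060 with these 75th percentile scalings, -0.064 with median scaling, -0.065 with array weights, -0.0065 with the slide as a block, -0.17 on slide 2, and -0.038 to 0.061 with each array left out. Npc1 was at 0.083 by the mean of probes, 0.25 on slide 2, and -0.14 to 0.075 with each array left out, and Tfeb at -0.15 to 0.0039.

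NP and MSC samples share replicate numbers but not animals. The correlation of their deviations was 0.199, 0.326, -0.347 and 0.0458 for numbers 1 to 4, and 2 of 4 MSC samples matched their own number best. This cannot settle whether the numbers pair the samples, because NP and MSC samples numbered 1, 2 and 4 also shared a slide. With the replicate number as a block, 15 lysosomal genes (25.4%, against 6.30% of all genes) were higher at an unadjusted p under 0.05, 13 of them among the 14 (Atp6v1d had a p of 0.0717), and 0 were called.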
